A study of Drosophila melanogaster with 24 samples.

Results

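Transcript abundance of the UDP-glycosyltransferases was examined in Drosophila melanogaster lines selected for aggressive behavior. The family was taken as every probe set that names a single gene whose current symbol begins with Ugt, which gave 35 of the 18769 probe sets on the array, 1 for each of 35 genes. The 24 samples were whole bodies of virgin flies, 3 to 7 days old and left 90 min without food, with 12 flies of 1 line and 1 sex in each sample and 2 samples for each line and sex. Lines H1 and H2 had been selected for high male aggression and lines L1 and L2 for low male aggression, and lines C1 and C2 were kept without selection, all from 1 base population founded by isofemale lines. The labels place the collection at generation 28 and the article places it at generation 25. One male label carries both numbers, as High Group 2, Line 1, Replicate 1. It was read as H2, because the first male sample of H1 is another one. With 2 lines a group, a difference between groups rests on few units of selection, and no source says whether a line's samples were raised in separate cultures. P-values over arrays therefore measure only the spread between these samples, which may be technical.

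UDP-glycosyltransferases are enzymes of the endoplasmic reticulum membrane that move a sugar from a UDP-sugar, in insects mostly UDP-glucose, onto small lipophilic molecules. The conjugates dissolve in water and can be exported and excreted, which makes the family a branch of detoxification beside the cytochromes P450 and the glutathione S-transferases. Substrates include plant toxins, insecticides, pigments, hormones and odorants, and in flies the transcripts are found in fat body, gut, Malpighian tubules and antennae. The number after Ugt in a symbol names the subfamily. By RefSeq order on the Release 6 plus ISO1 MT assembly, 10 members lie close together on chromosome arm 3R with at most 2 other genes between neighbors (Ugt35C1, Ugt302K1, Ugt302E1, Ugt302C1, Ugt35E1, Ugt35E2, Ugt35B1, Ugt35A1, Ugt304A1 and Ugt303A1, formerly named Ugt86Da to Ugt86Dj). Smaller runs with no other gene between members are Ugt37A2 and Ugt37A3 on 3R, Ugt303B3, Ugt303B1 and Ugt303B2 on 3R, Ugt49B1 and Ugt49C1 on 2R, Ugt36F1, Ugt36D1 and Ugt36E1 on 2L, and Ugt37C2, Ugt37E1 and Ugt37D1 on 2L.

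The deposited value is the Signal, an intensity on a linear scale that was computed for each probe set and scaled on each array. Signals of different probe sets are not comparable, so levels were compared only within a gene. Whether sequence differences between lines, or transcripts of related members, affected a Signal was not tested. The limma package was run on log2(Signal + 16) over the probe sets whose 12th-highest Signal was at least 56.6, and 24 of the 35 members were among these. The study used a filter on detection calls, which were not used here. Precision is limited by the number of arrays, 4 of each sex in a selection group. The median Signal of all probe sets was 124.8 to 143.4 on male arrays and 71.4 to 118.9 on female arrays, and was lower on every H array than on every L array of the same sex. The summed Signal of 6 accessory gland genes was 54515 to 65605 on male arrays and 81.7 to 169 on female arrays, except for C1 female replicate 1 with 2193. On that array the summed Signal of 5 testis genes was 1142, against 69.6 to 205.7 on the other female arrays. In whole flies, fewer cells of a type and less RNA per cell cannot be told apart.

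The 11 members left out for low Signal were Ugt35D1, Ugt35E1, Ugt35E2, Ugt37A1, Ugt37C1, Ugt37C2, Ugt37E1, Ugt49B2, Ugt302K1, Ugt303B2 and Ugt307A1. Their Signals were 1.7 to 102.6 over all arrays, with a median of 33.4. Ugt303B2 was just outside the limit with a 12th-highest Signal of 51.5, and Ugt36F1 just inside with 69.4, around the limit of 56.6. Of the 10 members in the 3R cluster, Ugt302K1, Ugt35E1 and Ugt35E2 were left out. For Ugt35E1 and Ugt37A1 the median Signal was lower in males than in females, at 32.7 in males and 59.5 in females for Ugt35E1 and at 12.3 in males and 35.3 in females for Ugt37A1, and for Ugt35D1 it was 12.6 in males and 6.2 in females, values with no test. On L1 female replicate 1, the array with the highest median Signal of the females, 5 of the 11 reached their highest value (Ugt35E1, Ugt37E1, Ugt302K1, Ugt303B2 and Ugt307A1). Whether the transcripts were present was not tested.

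The Signal of 7 of the 24 tested members (29.2%) differed among the 6 lines at an adjusted p under 0.001, against 6.71% of all probe sets tested. They were Ugt35C1 (adjusted p = 9.94e-08), Ugt49C1 (3.04e-07), Ugt37A2 (2.39e-06), Ugt49B1 (5.99e-06), Ugt303B1 (3.54e-05), Ugt302E1 (0.000312) and Ugt37A3 (0.000824). At an adjusted p under 0.05 there were 14 members (58.3%), against 28.8% of all probe sets. The highest and the lowest line mean differed by more than 1 on the log2 scale in 7 members (29.2%), against 6.19% of all probe sets, and by 2.47 in Ugt35C1. Of the variance within the sexes, a median of 80.2% lay among lines in the members and 62.4% in all probe sets, from 32.2% in Ugt317A1 to 97.1% in Ugt35C1. The highest line mean was in H2 in 8 members, in C2 in 6, in H1 and L1 in 4 each and in C1 and L2 in 1 each. The lowest was in L1 in 7 members and in H1 and L2 in 5 each. It was in C1 in 4, in H2 in 2 and in C2 in 1. These counts of highest and lowest lines were not made over all probe sets and have no reference. With the labels of the doubtful male sample and the first H1 male sample exchanged, 3 members still passed 0.001 (Ugt35C1, Ugt37A2 and Ugt49C1). The share of all probe sets under that exchange was not computed.

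**Figure D1:**
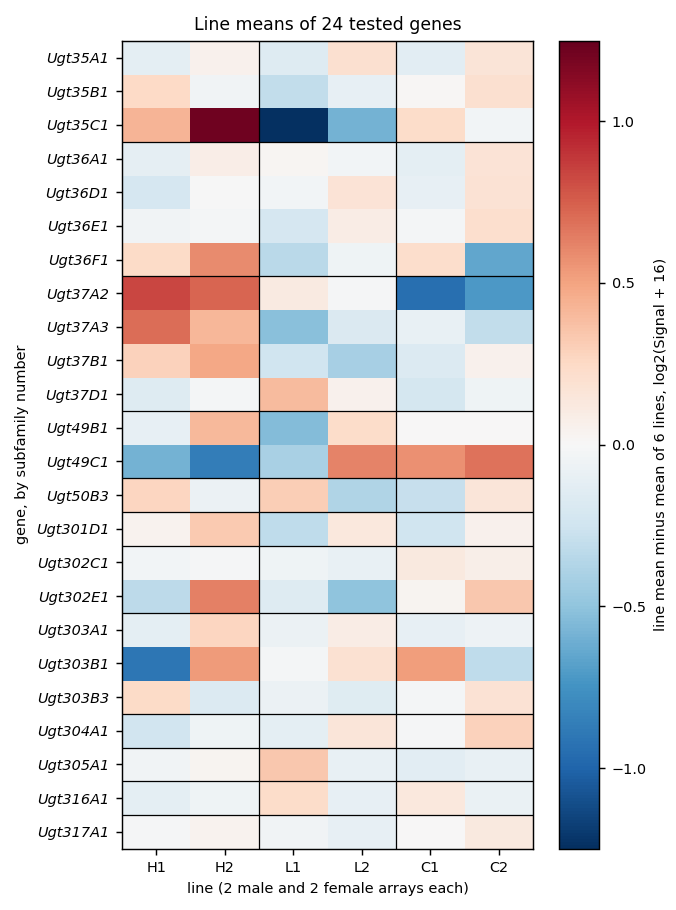
Line means of the 24 tested members (rows, by subfamily number) in the 6 lines (columns), as the difference on the log2(Signal + 16) scale from the mean of the 6 lines, red above and blue below. Ugt35C1 has the widest range, 2.47 between H2 and L1, and Ugt37A2 is highest in both H lines and lowest in both C lines.

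Ugt35C1, formerly Ugt86Dd, lies at 1 end of the 3R cluster and is known for its part in the nicotine resistance of larvae. In males its Signal was 4091 and 4035 in H1, 5644 and 6108 in H2, 1229 and 1074 in L1, 2432 and 1933 in L2, 3121 and 3354 in C1 and 3364 and 2659 in C2. In females it was 1942 and 2040.5 in H1, 4806 and 3620.1 in H2, 847 and 538 in L1, 909 and 907 in L2, 1933 and 1867 in C1 and 1507 and 1350.0 in C2. In each sex all 4 H arrays were above all 4 C arrays, and all 4 C arrays were above all 4 L arrays. Among males the mean was 4969.5 ± 1064 in H, 1667 ± 632 in L and 3124 ± 329.9 in C, and among females 3102 ± 1371 in H, 800.4 ± 177 in L and 1664 ± 281 in C (SD, n = 4 arrays). Ugt35C1 had a difference of 1.74 on the log2 scale (H minus L, standard error 0.094, adjusted p = 3.52e-08). For H and C the difference was 0.73 (standard error 0.094, adjusted p = 0.000168), and for L against C -1.01 (standard error 0.094, adjusted p = 7.09e-06). H2 was above H1 in each sex, with line means of 12.28 and 11.48, and without H2 the difference between H and C was 0.33 and was no longer called.

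The other 6 tested genes of the 3R cluster had highest and lowest line means 0.22 (Ugt302C1) to 1.13 (Ugt302E1) apart, against 2.47 in Ugt35C1. Ugt35B1, a gene with strong antennal transcript in flies, had a difference of 0.31 on the log2 scale (H minus L, standard error 0.0619, adjusted p = 0.00445) and one of -0.31 (L minus C, adjusted p = 0.00514), with -0.0036 between H and C (adjusted p = 0.978). Its Signal was 2056 to 2941 in H males, 1760.2 to 2327 in L males and 2578 to 2845 in C males, so that in males L and C did not overlap and H overlapped with both. Without L1 the differences were 0.21 for H against L and -0.21 for L against C, and neither was called. The call for H against L also ended without H1 (0.17) and without L2 female replicate 1 (0.27), and that for L against C without C2 (-0.22). Ugt304A1 had -0.28 between H and C with an adjusted p of 0.0486, close to the threshold, and this call was lost under 32 of 43 alternatives. Its Signal was 152 to 179 in H males and 170.3 to 269 in C males. Ugt35A1, Ugt302C1 and Ugt303A1 were not called in any contrast, with line means within 0.35, 0.22 and 0.40 of each other on the log2 scale.

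In Ugt302E1, also of the 3R cluster, lines of the same group stood apart. Its Signal in males was 69.7 and 95.7 in H1, 131 and 181 in H2, 80.9 and 74.6 in L1, 65.6 and 59.7 in L2, 97.2 and 137 in C1 and 118 and 108 in C2. In females it was 132 and 146 in H1, 399.8 and 254 in H2, 214 and 166 in L1, 135 and 137 in L2, 189.9 and 158 in C1 and 267 and 292 in C2. H2 was above H1 on all arrays of the same sex, and the line means were 6.94 in H1 and 7.90 in H2, on either side of 7.11 in L1. Both L lines were below both C lines over the sexes, with a difference of -0.51 on the log2 scale (L minus C, standard error 0.105, adjusted p = 0.00626), a call that ended without L2 (-0.34), without C2 (-0.36) and with the labels of the doubtful male sample exchanged (-0.51). It also ended in the study's model on the Signal itself. Its call by line was lost under 10 of 41 alternatives, among them the omission of H1, H2, L2 or C2.

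All 4 tested members of the Ugt37 subfamily were consistently different in at least 1 contrast between selection groups. This call asked for 2 things, an adjusted p under 0.05 and a difference of the same sign in all 4 pairings of a line of 1 group with a line of the other, and 15.7% of all 9753 genes tested were called in at least 1 contrast. Ugt37A2 was highest in H, intermediate in L and lowest in C. In males its Signal was 953 and 1051 in H1, 773 and 931 in H2, 461 and 437 in L1, 488 and 552 in L2, 376 and 256 in C1 and 325 and 248 in C2. In females it was 1067 and 1063 in H1, 1285 and 921 in H2, 772 and 939 in L1, 558 and 687 in L2, 242 and 311 in C1 and 347 and 494 in C2. The H arrays did not overlap with the C arrays in either sex, nor did the L arrays with the C arrays. H and L arrays did not overlap in males but did in females, where 1 H2 array had 921 and 1 L1 array had 939. The mean was 927 ± 115 in H males, 485 ± 49.7 in L males and 301 ± 60.5 in unselected males (SD, n = 4 arrays). Ugt37A2 had a difference of 1.61 on the log2 scale (H minus C, standard error 0.11, adjusted p = 3.06e-07), and 0.87 for L against C (standard error 0.11, adjusted p = 0.000157) and 0.73 for H against L (standard error 0.11, adjusted p = 0.000505). No omission of an array or a line ended these calls.

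Ugt37A3, next to Ugt37A2, was higher in H than in either other group, whereas L and C did not differ by the test. Its Signal in males was 174 and 184 in H1, 101 and 154 in H2, 58.3 and 39.1 in L1, 83.4 and 114 in L2, 119 and 60.2 in C1 and 67.6 and 98.6 in C2. In females it was 181 to 214 in H, 87.2 to 120.5 in L and 88.7 to 138 in C, so that all H females were above all others, while in males H2 overlapped with L and C. Ugt37A3 had a difference of 0.91 on the log2 scale (H minus L, standard error 0.127, adjusted p = 0.000282) and 0.75 for H against C (adjusted p = 0.00148). For L and C it had -0.15 (adjusted p = 0.552). Its call for line was close to the threshold and was lost under 31 of 41 alternatives, while its calls for H against L and H against C were lost only when lines entered as a random block or as the replicates.

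Ugt37B1 had a difference of 0.72 on the log2 scale (H minus L, standard error 0.0976, adjusted p = 0.000207) and 0.45 for H against C (adjusted p = 0.00861); this last call ended without C1 (0.33) or without H2 (0.35). In males its Signal was 412 to 595 in H, 249.8 to 303 in L and 365 to 414 in C, and H and L did not overlap. In females H1 replicate 1 had 183 while the other 3 H arrays had 310.1 to 331, and the L females had 136 to 213. Ugt37D1, formerly Ugt36Bc, ran the other way, with a difference of -0.32 on the log2 scale (H minus L, standard error 0.0715, adjusted p = 0.00997) and 0.36 for L against C (adjusted p = 0.0051). In females its Signal was 619 to 880.3 in H, 1298 and 1428 in L1, 786 and 848 in L2 and 584 to 902 in C, so that L1 alone stood above the rest. Without L1 the differences were -0.15 for H against L and 0.19 for L against C, and both calls ended. With arrays scaled to a common median they were -0.15 and 0.29, also not called. The call for H against L ended without H1 (-0.25) and that for L against C without C1 (0.28). The other 4 members of the subfamily, Ugt37A1, Ugt37C1, Ugt37C2 and Ugt37E1, were among those left out for low Signal.

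**Figure D2:**
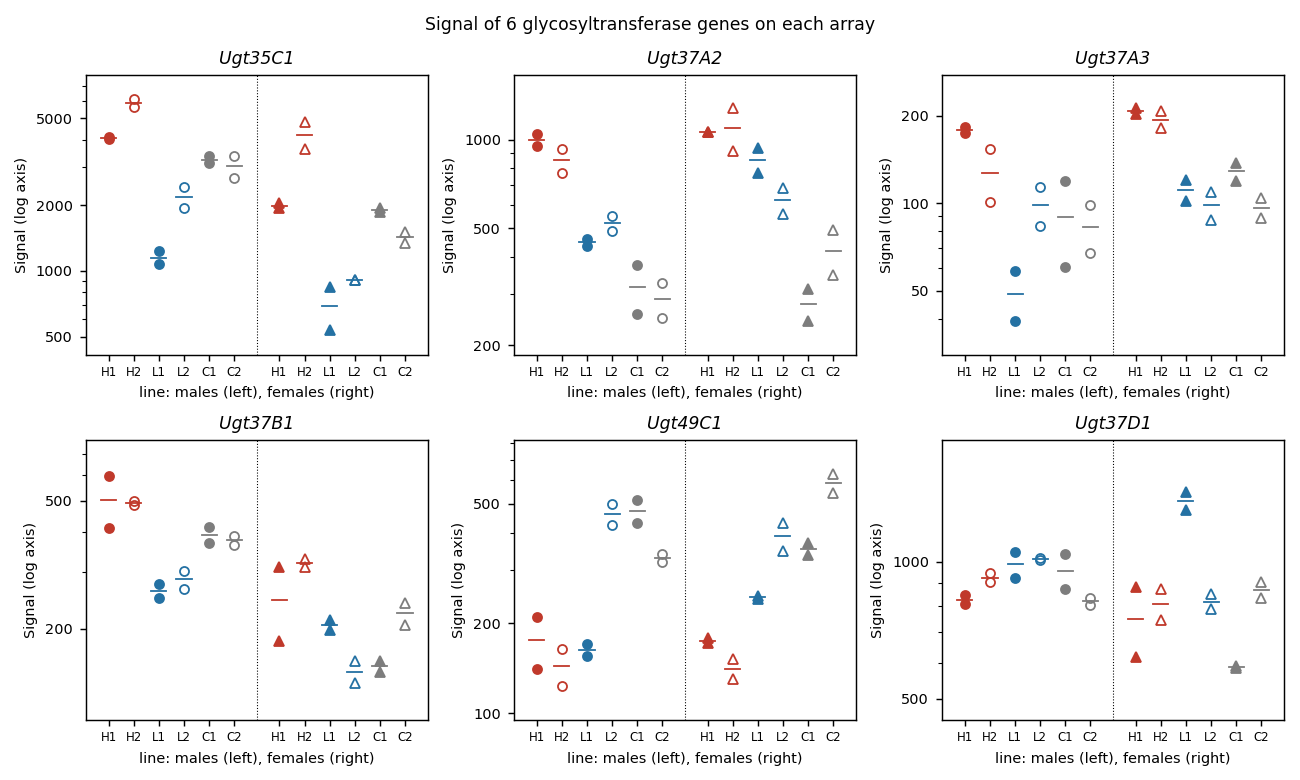
Signal on each array (log axis) of 6 members called in at least 1 contrast, by line, males left of the dotted line (circles) and females right of it (triangles), with H red, L blue and C grey, line 1 filled and line 2 open, and a bar at the mean of 2 arrays. Ugt35C1 is ordered H, C, L and Ugt37A2 is ordered H, L, C in each sex, Ugt49C1 is low in both H lines, and the Ugt37D1 arrays of L1 females lie above all others.

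Ugt49B1 and Ugt49C1 adjoin each other on 2R and both differed by line, but in different ways. Ugt49C1 was low in both H lines, with 124 to 210.2 in H males and 130.2 to 179 in H females, against 319.6 to 516 in C males and 338 to 629 in C females, with no overlap in either sex. The L lines were apart from each other: in males L1 had 169.6 and 155, within the range of H, and L2 had 424 and 498, within that of C. In females L1 had 246 and 241 and L2 had 347 and 433. Ugt49C1 had a difference of -1.35 on the log2 scale (H minus C, standard error 0.0873, adjusted p = 3.02e-07). For H and L the difference was -0.83 (adjusted p = 1.80e-05), but without L2 it was -0.32 and the call ended. With arrays scaled to a common median it was -0.68 and the lines no longer had the same order. For L and C the difference was -0.52 (adjusted p = 0.00156), with the lines not all of the same order.

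In Ugt49B1 line 2 was above line 1 in both selected groups. In males its Signal was 1139.6 and 1115 in H1, 1699 and 1895 in H2, 906 and 870.3 in L1, 1467 and 1446 in L2, 1434 and 1248 in C1 and 1210.2 and 1071 in C2, and in females 1042 and 1185 in H1, 1396 and 1465 in H2, 714 and 811 in L1, 1350.2 and 1403 in L2, 1097 and 1096 in C1 and 1317 and 1269 in C2. This order held on all arrays of the same sex, and the H and L lines interleaved, with line means of 10.15 in H1, 10.66 in H2, 9.71 in L1, 10.48 in L2, 10.26 in C1 and 10.26 in C2. The difference for H against L was 0.31 with an adjusted p of 0.0016, and it was not called, because the lines were not all of the same order. Without L1 the range of its line means was 0.51 and its call by line ended.

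Ugt303B1 likewise differed between lines of 1 group. Its Signal was 64.8 to 68.0 in H1 males and 50.8 to 58.6 in H1 females, and 136 to 159.8 in H2 males and 188 to 310.1 in H2 females. C1 was above C2, with 197 to 200.0 and 92.3 to 116 in males. The line means of L1 and L2, 7.13 and 7.34, lay between those of H1 (6.25) and H2 (7.68), and the difference between H and L was -0.27 (adjusted p = 0.143). Ugt303B3, adjacent on the chromosome, had its highest line mean in H1 (8.13) and its lowest in H2 (7.72), the opposite of Ugt303B1, and did not pass the threshold for line (adjusted p = 0.0671). Without H1 the range of the line means of Ugt303B1 was 0.85 and its call for line ended.

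**Figure D3:**
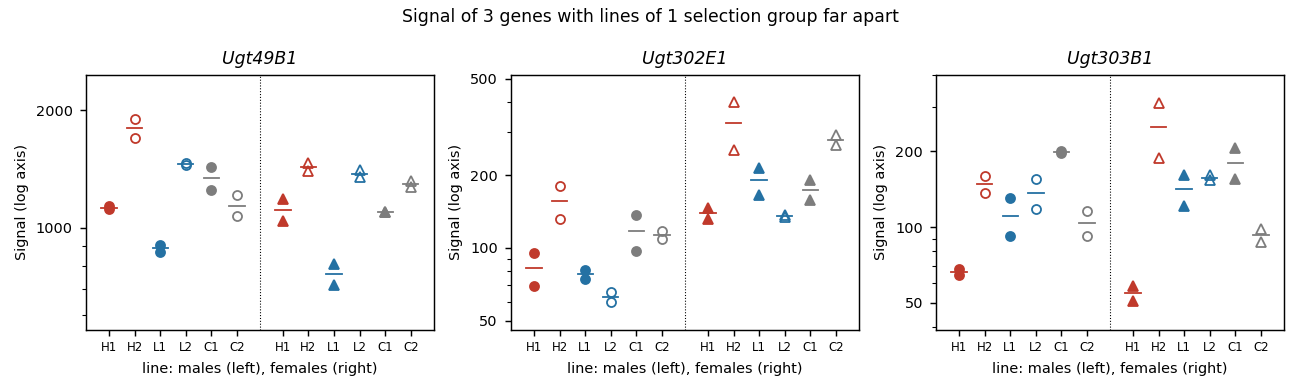
Signal on each array (log axis) of 3 members whose lines of 1 selection group lie apart, by line, males left of the dotted line (circles) and females right of it (triangles), with H red, L blue and C grey, line 1 filled and line 2 open, and a bar at the mean of 2 arrays. Ugt303B1 is lowest in H1 in each sex, and Ugt49B1 is higher in line 2 than in line 1 of both selected groups.

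Counted over the family, 7 of 24 tested members (29.2%) were consistently different between H and L, against 7.65% of all genes tested. Of these, 5 were higher in H (Ugt35B1, Ugt35C1, Ugt37A2, Ugt37A3 and Ugt37B1), against 3.25% of all genes, and 2 were lower (Ugt37D1 and Ugt49C1), against 4.4%. Scaling arrays to a common median moved the median difference of all probe sets between H and L to 0.13 from -0.02 as deposited. The split was then 8 higher and 0 lower in H. Shares of all genes called on that scale were not computed, so this split and those below have no reference. Between H and C, 6 members were called (25%), against 8.84% of all genes, 4 of them higher in H (Ugt35C1, Ugt37A2, Ugt37A3 and Ugt37B1), against 3.37%, and 2 lower (Ugt49C1 and Ugt304A1), against 5.46%. With arrays scaled to a common median it was 5 and 1. Between L and C, 5 were called (20.8%), against 5.53% of all genes, 2 higher in L (Ugt37A2 and Ugt37D1), against 2.42%, and 3 lower (Ugt35B1, Ugt35C1 and Ugt302E1), against 3.11%. With arrays scaled to a common median it was 1 and 3. Without L1 the count was 3, and without C2 it was also 3. The contrasts share lines and are not independent. A rule of 2 steps modelled on the study's asked first for a difference by line or by line and sex at an adjusted p under 0.001 and then for a contrast at an unadjusted p under 0.05. As applied here it did not check the order of single lines, although the contrasts of the study were meant to find changes shared by replicate lines. By that rule the members called between H and L were the 7 that differed by line (29.2%), against 4.92% of all probe sets. Between H and C all of these but Ugt302E1 were called (25%), against 4.79%, and between L and C all but Ugt37A3 and Ugt303B1 (20.8%), against 4.62%. Arrays of the groups did not overlap in either sex, in the same direction, for 1 member between H and L (Ugt35C1), against 1.32% of all genes, for 3 between H and C (Ugt35C1, Ugt37A2 and Ugt49C1), against 1.51%, and for 2 between L and C (Ugt35C1 and Ugt37A2), against 0.882%.

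When each line counted as a single replicate (limma on 6 means), 0 of 24 members had an adjusted p below 0.05 in any of the contrasts, as did 0 of all genes. At an unadjusted p under 0.05 there were 5 members for H against L (20.8%), against 5.04% of all genes, 4 for H against C (16.7%), against 4.97%, and 2 for L against C (8.33%), against 4.38%. The lowest adjusted p of a member was 0.117, for Ugt37A2 between H and C. With lines entered as random blocks, the calls that stayed were Ugt35C1 and Ugt37B1 between H and L, Ugt37A2 and Ugt49C1 between H and C, and Ugt37A2 between L and C. By the adjusted p alone, with no check of the order of lines, 62, 44 and 25 of all 9753 genes passed 0.05 in these contrasts. At an unadjusted p under 0.05 the shares of members were 29.2%, 25% and 20.8%, against 8.52%, 9.15% and 7% of all genes.

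**Figure D4:**
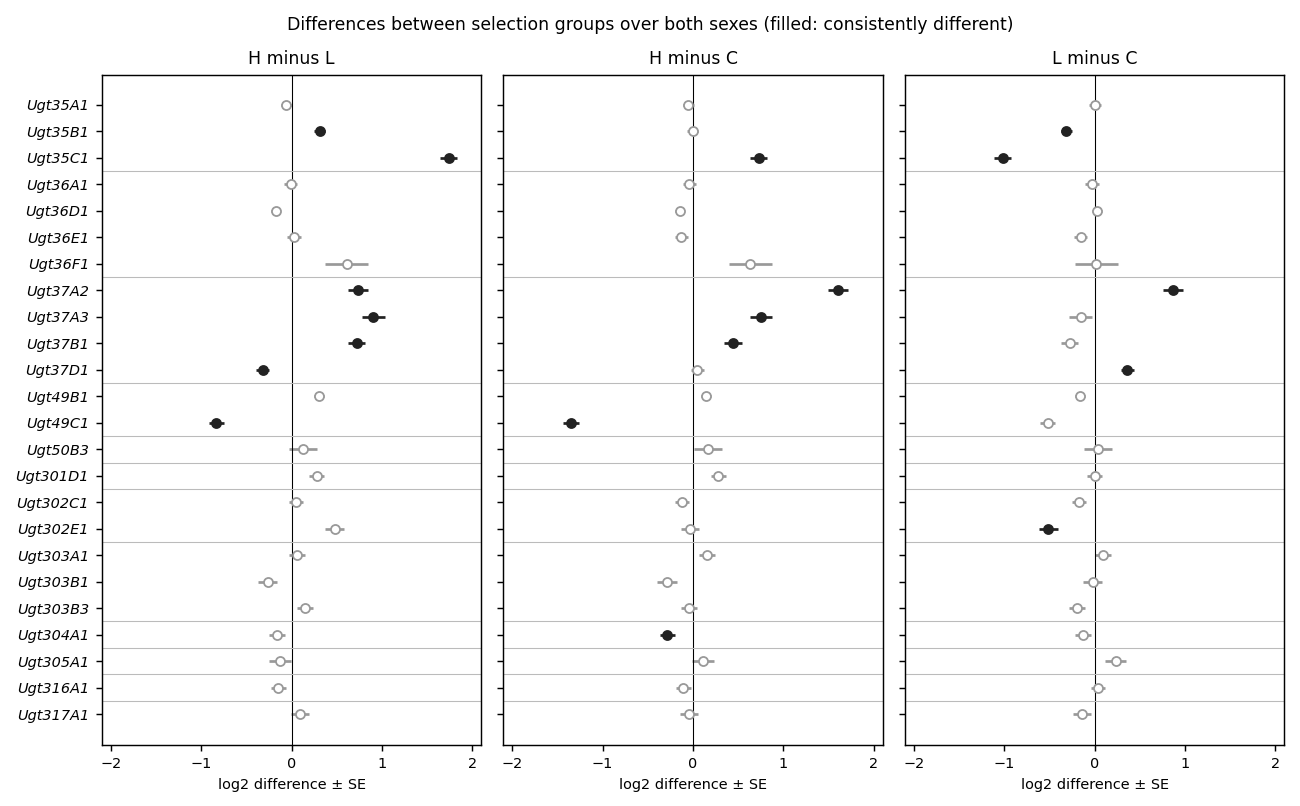
Log2 differences with standard errors between selection groups over both sexes, for H minus L, H minus C and L minus C, in the 24 tested members by subfamily, with filled points for members called consistently different. The 4 Ugt37 members each have at least 1 filled point, the 4 Ugt36 members have none, and Ugt35C1 lies at 1.74 for H minus L.

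Among subfamilies with more than 1 tested member, the number called in at least 1 contrast was 2 of 3 in Ugt35, 0 of 4 in Ugt36, 4 of 4 in Ugt37, 1 of 2 in Ugt49, 1 of 2 in Ugt302 and 0 of 3 in Ugt303, against 15.7% of all genes tested. By line, the numbers were 1, 0, 2, 2, 1 and 1, against 6.71% of all probe sets. The median range of line means was 0.56 in Ugt35, 0.41 in Ugt36, 1.06 in Ugt37, 1.24 in Ugt49, 0.67 in Ugt302 and 0.40 in Ugt303, against 0.41 over all probe sets. Subfamilies were not tested against each other, and Ugt36F1, the tested member with the lowest 12th-highest Signal, had line means over a range of 1.24 and an adjusted p for line of 0.075. Ugt36F1 had 3.8 and 5.3 in C2 females and 8.5 and 58.9 in C1 females. Its neighbors Ugt36D1 and Ugt36E1 had line means within 0.39 and 0.42 of each other. In Ugt36D1 the difference between H and L was -0.17 (adjusted p = 0.0394), with the lines not all of the same order. Ugt36A1, formerly Dorothy (Dot), had -0.01 (adjusted p = 0.961). Members with no other tested gene in their subfamily were not called in any contrast, except Ugt304A1. Of these, Ugt301D1 had 0.28 for H against L (adjusted p = 0.0427) and 0.28 for H against C (adjusted p = 0.0405), each with lines not all of the same order. The probe sets of Ugt36E1, Ugt37D1 and Ugt50B3 are of the kind that can match more than 1 transcript.

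Between the sexes the widest difference was in Ugt50B3, with Signals of 1338, 2369 and 3577 in males (lowest, median and highest of 12 arrays), against 41.9, 88.0 and 161 in females. The lowest male was above the highest female by a wide margin, and the log2 difference (male minus female) was 4.55 (standard error 0.127, adjusted p = 9.13e-15). Ugt305A1, which carries the older name Tes36, had Signals of 501, 662 and 796 in males (lowest, median and highest of 12 arrays), against 126, 154 and 326 in females, a difference of 1.90 (standard error 0.0967, adjusted p = 1.62e-11). Ugt36F1 had a difference of 1.35 (standard error 0.193, adjusted p = 7.62e-06), with 25.1 to 97.8 in males and 3.8 to 94.1 in females, which overlap. It passed the filter mainly through its male arrays, so its test by sex is not independent of the filter. In the other direction Ugt316A1 had Signals of 272, 335 and 464 in males (lowest, median and highest of 12 arrays), against 970.3, 1197 and 1419 in females, without overlap, and a difference of -1.73 (standard error 0.0665, adjusted p = 4.47e-13). Ugt302E1 had -0.91 (standard error 0.0854, adjusted p = 4.98e-08), with 59.7 to 181 in males and 132 to 399.8 in females. On C1 female replicate 1, the female array with accessory gland and testis transcript, Ugt50B3 had 109 and Ugt305A1 141, both within the range of the other female arrays. The highest female value of Ugt305A1 was on L1 female replicate 1, the array with the highest median Signal of the females.

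Of the 12 members with a difference by sex at an adjusted p under 0.001, Ugt35B1, Ugt35C1, Ugt37B1 and Ugt302E1 were also called in a contrast between selection groups, and the other 8 were not. Among all 24 tested members, 9 were called in at least 1 contrast (37.5%), against 15.7% of all genes tested. In males Ugt50B3 averaged 2866 ± 720.5 in H, 2251 ± 426 in L and 2310.0 ± 761 in C (SD, n = 4 arrays), with log2 differences in males of 0.33 for H against L, 0.34 for H against C and 0.01 for L against C. Over both sexes Ugt36F1 had 0.61 for H against L (adjusted p = 0.124) and 0.63 for H against C (adjusted p = 0.107), neither called. In males Ugt305A1 averaged 688 ± 58.3 in H, 648 ± 137 in L and 638 ± 60.4 in C (SD, n = 4). The male groups of Ugt50B3 and of Ugt305A1 overlapped. In females Ugt316A1 averaged 1171 ± 73.6 in H, 1209.9 ± 187 in L and 1177 ± 142 in C, again with overlap, and Ugt317A1, which lies alone of its subfamily on 2R, averaged 219.6 ± 17.8 in H, 214 ± 33.1 in L and 216 ± 33.4 in C (SD, n = 4). The adjusted p of Ugt50B3, Ugt305A1, Ugt316A1 and Ugt317A1 over both sexes was above the threshold in every contrast, with a lowest value of 0.276.

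By the test, 8 of 24 members were higher in males (33.3%), against 30.2% of all probe sets, and 4 were higher in females (16.7%), against 45.3%, at an adjusted p under 0.001. In all, 12 of 24 differed by sex (50%), against 75.5%. Those higher in males were Ugt50B3, Ugt305A1, Ugt36F1, Ugt35C1 (0.89), Ugt35B1 (0.89), Ugt37B1 (0.80), Ugt36D1 (0.53) and Ugt301D1 (0.45). Among them, Ugt36F1 passed the filter mainly through its male arrays, so its place in this count is not independent of the filter. Those higher in females were Ugt316A1, Ugt302E1, Ugt317A1 (-0.50) and Ugt303A1 (-0.42). Directions by sex depended on the scaling of the arrays, and the median Signal was lower on every female array than on every male array. With arrays scaled to a common median, the median difference of all probe sets was -0.84 in place of -0.18, and 3 members were higher in males (Ugt50B3 at 3.92, Ugt305A1 at 1.25 and Ugt36F1 at 0.89) and 16 in females. On that scale 17.7% and 66.7% of all probe sets were called in these directions. Of the members called as deposited, Ugt36D1 (-0.15) and Ugt301D1 (-0.23) then changed sign, and Ugt35C1 (0.20), Ugt35B1 (0.20) and Ugt37B1 (0.15) were no longer called. Relative to the median of all probe sets, the members' median was higher under either scaling, at 0.03 as deposited and at -0.63 with a common median. The directions of Ugt50B3, Ugt305A1, Ugt36F1, Ugt316A1, Ugt302E1, Ugt317A1 and Ugt303A1 were the same under both scalings. Without C2 the difference of Ugt303A1 was -0.35 and was no longer called.

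**Figure D5:**
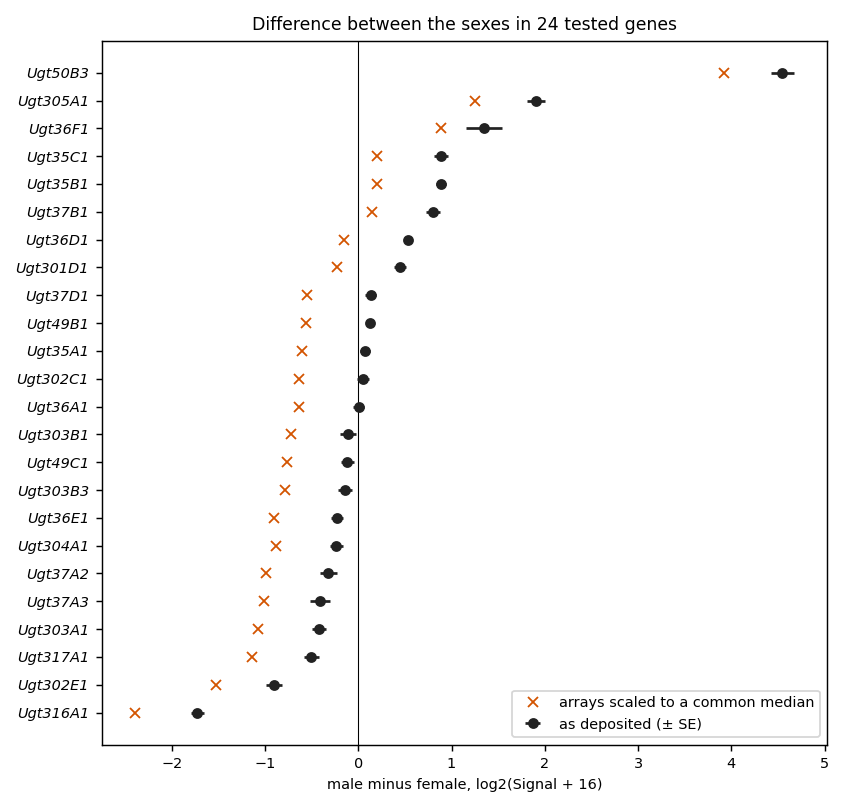
Log2 difference between males and females (male minus female) of the 24 tested members, ordered by size, as deposited with standard errors (points) and with arrays scaled to a common median (crosses). Ugt50B3 lies at 4.55 and Ugt316A1 at -1.73 as deposited, and every cross lies left of its point.

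By limma, 0 of 24 members showed an interaction of line with sex (adjusted p under 0.001), against 0.0257% of all probe sets. At an unadjusted p under 0.05 there were 3 (Ugt37D1, Ugt49B1 and Ugt49C1), or 12.5%, against 12.5% of all probe sets. In Ugt37D1, L1 males had 1050.5 and 923 and L1 females 1298 and 1428, whereas C1 males had 1039.8 and 873 and C1 females 584 and 591. In Ugt49C1, C2 males had 319.6 and 341 and C2 females 543 and 629, whereas C1 males had 516 and 432 and C1 females 338 and 371. Contrasts between selection groups were also compared between males and females, and 0 of 24 members passed an adjusted p of 0.05 in any contrast, against 0.164% of all genes for H against L, 0.543% for H against C and 0.123% for L against C. At an unadjusted p under 0.05 there was 1 for H against L (Ugt301D1), against 9.62% of all genes, 0 for H against C, against 12.8%, and 1 for L against C (Ugt37D1), against 8.21%. Ugt35C1 had a difference between H and L of 1.62 in males and 1.86 in females. Ugt37A2 had 1.58 in males and 1.63 in females for H against C, Ugt37A3 0.96 in males and 0.85 in females for H against L, and Ugt49C1 -1.25 in males and -1.45 in females for H against C. The sign was the same in males and females for 19 of 24 members for H against L, 17 for H against C and 18 for L against C. The share of all genes with the same sign was not computed, so these counts have no reference. Males and females also came from the same lines.

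Other genes of the pathway were taken from 3 lists, whose counts stand beside 6.71% of all probe sets called by line, and 7.65%, 8.84% and 5.53% of all genes called for H against L, H against C and L against C. Of 9 tested genes that make, convert or transport UDP-sugars or their precursors, 5 differed by line, namely sugarless (sgl), Hex-C, Pgm1, Galt and Galk. The enzyme encoded by sgl, UDP-glucose dehydrogenase, consumes UDP-glucose. The transcript of sgl was lower in H than in C, with a log2 difference of -0.46 (adjusted p = 0.000203), and lower in L than in C, with -0.36 (adjusted p = 0.00165), the only gene of this list that was called in a contrast. Hex-C had 0.31 for H against L (adjusted p = 0.00525) and Galt -0.25 for H against C (adjusted p = 0.0120), each with lines not all of the same order. UGP, which makes UDP-glucose, had 0.28 for H against L (adjusted p = 0.0994). Of 5 tested regulators of detoxification, cap-n-collar (cnc), which encodes a factor that activates detoxification genes in flies, differed by line (adjusted p = 1.15e-05), with line means over a range of 1.96, but neither it nor Keap1, its inhibitor, was called in a contrast. For cnc the difference between H and C was -0.57 (adjusted p = 0.0214), with the lines not all of the same order. Of 6 tested genes of exporters of conjugates and other compounds, 0 differed by line, 2 were higher in H than in L (Mdr49, 0.19, and Mdr50, 0.49) and 2 were higher in H than in C (Mdr49, 0.18, and MRP, 0.34). Of the markers of tissues with glycosyltransferase transcript, 0 of 4 for Malpighian tubule, 0 of 3 for midgut and 0 of 4 for antenna differed by line or were called in a contrast. Of 5 for fat body, Lsp2 and Apoltp did. Lsp2 had 1.58 for H against C and 1.38 for L against C, and Apoltp -0.32 for H against L and -0.48 for H against C. The summed Signal of the fat body markers was 18798 to 23146 in H males, 18546 to 25213 in L males and 18148 to 22561 in C males, and 32355 to 43192 in H females, 34940 to 49219 in L females and 43634 to 51089 in C females, where H and C did not overlap. This list holds the yolk protein gene Yp1, which is also among the female markers. Yp1 itself had -0.38 for H against C (adjusted p = 0.3) and was not called. Such a sum rests mostly on the genes of the highest Signal. The part of these pathway genes and markers in the differences of the glycosyltransferase transcripts was not tested.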

How the data were processed

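The authors hybridized RNA of each sample to 1 Affymetrix Drosophila whole-genome array and computed the deposited intensity of each probe set, the Signal, with MAS5 from matched and mismatched oligonucleotides, scaled per array. No genome build is given in the sources used here. Trimmed means (2% off each end) were 497 to 498 on all arrays. Genes were taken from the 13647 probe sets naming a single gene, with symbols updated through RefSeq, where all 35 glycosyltransferase genes matched. No probe set that names several genes names a member.

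The fit (limma 3.58.1 in R 4.3.3) had log2(Signal + 16) as its response and a mean per line and sex, 12 in all. Sex, line and line by sex were tested at a Benjamini-Hochberg adjusted p of 0.001 over all probe sets kept, as in the study's analysis of variance with both factors. Contrasts were adjusted over 9753 genes, each represented by its probe set of the highest mean. The filter stands in for the study's filter on Absent calls. The script was tested on simulated data. Values are printed for members past a threshold and for the largest differences by sex. Members and gene lists were chosen with earlier results of these data known. Alternatives were other filters, pseudocounts, scalings, models, call rules and summaries, an exchange of the doubtful labels, and the omission of each array and line. No sample was left out of the reported fit.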

Additional observations from a re-analysis of the deposited data

Results flagged for a closer look

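In 12 of 144 groups of 4 arrays of 1 selection group and sex, taken over the 24 tested members, 1 array stood far from the other 3, with a gap past Dixon's 95% critical value as a share of the whole range on the log2 scale. Chance flags about 1 in 20 groups, and each group of 4 holds 2 lines. Ugt35A1 had a Signal of 914 on H2 male replicate 2, against 679.8 to 709 on the other 3 H male arrays. Ugt35B1 had a Signal of 1306 on L2 female replicate 2, against 1051 to 1081 on the other 3 L female arrays. Ugt35C1 had a Signal of 538 on L1 female replicate 2, against 847 to 909 on the other 3 L female arrays. Ugt36D1 had a Signal of 1296 on H1 male replicate 1, against 1371 to 1387 on the other 3 H male arrays. Ugt36F1 had a Signal of 25.1 on C2 male replicate 2, against 81.1 to 95.5 on the other 3 C male arrays. Ugt36F1 had a Signal of 58.9 on C1 female replicate 2, against 3.8 to 8.5 on the other 3 C female arrays. Ugt37B1 had a Signal of 183 on H1 female replicate 1, against 310.1 to 330.5 on the other 3 H female arrays. Ugt50B3 had a Signal of 2889 on L1 male replicate 1, against 2000.2 to 2059.6 on the other 3 L male arrays. Ugt301D1 had a Signal of 659 on C1 male replicate 2, against 991 to 1069 on the other 3 C male arrays. Ugt302C1 had a Signal of 1014 on H1 female replicate 1, against 1232 to 1260.5 on the other 3 H female arrays. Ugt303B1 had a Signal of 121 on L1 female replicate 2, against 154 to 161 on the other 3 L female arrays. Ugt316A1 had a Signal of 1062 on H2 female replicate 2, against 1194 to 1223 on the other 3 H female arrays. The causes of these values were not tested.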

How the results depend on the processing

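The 37 results of single members that were called in the reported fit gave 1589 recomputed values. Of these, 1449 kept their direction and side of the threshold, 138 lost their call and 2 changed direction. The 2 were the differences by sex of Ugt36D1 (-0.15) and Ugt301D1 (-0.23) with arrays scaled to a common median. Results not called in the reported fit, and calls gained by them, are not among these values. Over all 24 tested members, the difference by sex changed sign in 7 under that scaling. The count of members that differ by line was 3 with the labels of the first H1 and H2 male samples exchanged and 14 at a threshold of 0.05, and 5 to 8 with 1 array left out. For the exchange and for the omission of arrays or lines, shares of all probe sets or genes were not computed. The count by sex was 19 with arrays scaled to a common median and 12 to 14 with 1 array left out. The contrasts H against L, H against C and L against C had 2, 2 and 1 calls with lines as random blocks, and 0, 0 and 0 when each line counted as a single replicate. By the adjusted p alone, 62, 44 and 25 of all genes passed 0.05 with lines as random blocks. For L and C the count was 3 without line C2 and 3 without line L1. With 1 array left out, 6 to 8 members were called for H against L, 5 to 7 for H against C and 5 to 6 for L against C. The causes were not tested. Replicate numbers were not used as pairs in the reported fit. Deviations of same-numbered samples correlated at -0.24 to 0.21 between groups, with a median of 0.05, and at over 0.1 in 19 of 66 pairs of groups. These values do not settle whether the numbers pair the samples. With the replicate number as a block, the counts were 8 by line, 12 by sex, 7 for H against L, 6 for H against C and 5 for L against C, and the call of Ugt37A3 by line was lost. Low Signals, as of Ugt36F1, limit precision, and 24 arrays of 6 lines limit all contrasts.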
